A study of Mus musculus with 20 samples.

Results

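Cell cycle genes are described here as a set of 40 listed symbols, found by exact match in the count files of all 20 libraries, of 24421 symbols in those files. By their known roles 16 belong to the G1/S transition and S phase, and 24 are made or act mainly in G2 and mitosis. All 40 passed the filter on low counts, which kept 13960 genes. The study sequenced total RNA of macrophage populations from C57BL/6JRj mice to compare the macrophages at the borders of the brain with microglia. There were 4 libraries each of peritoneal macrophages from the peritoneal cavity, choroid plexus macrophages, dura macrophages with high surface MHC class II, dura macrophages with low MHC class II, and microglia from the brain. The MHC II-low samples are titled "int" and labelled "lo". No treatment or mutation is labelled in any group, and the labels give no age, sex, sorting gate or pooling of animals. The labels also do not say whether the 4 libraries of a population came from separate animals, so p-values measure the spread between these libraries, which may be technical.

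A dividing cell copies its DNA in S phase and separates the copies in mitosis, and each step runs on proteins that are made shortly before they are needed. Genes of the first step, such as the MCM helicase, the sliding clamp and the enzymes that make deoxynucleotides, are switched on by E2F transcription factors at the end of G1. Genes of the second step, such as the B-type cyclins, mitotic kinases and spindle motors, often carry CHR elements and CCAAT boxes and peak in G2 and mitosis. Quiescent cells keep both sets low, although several replication proteins are also used in DNA repair. Tissue macrophages, microglia included, can maintain their numbers by local division.

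The promoters of 5 genes are printed as examples of both classes, and their letters were not set against expression levels. Mki67 and Cdk1 are mitotic genes, and Mcm6 and Rrm1 are S-phase genes, all lower in microglia than in the other populations. Mcm3 is an S-phase gene whose microglia level overlapped that of the brain border populations. Each sequence is the 250 bases before the annotated start, on the gene's strand, from RefSeq on GRCm38.p6. They lie at chr7:135716380-135716629 (minus strand, Mki67), chr10:69352913-69353162 (minus strand, Cdk1), chr1:128359706-128359955 (minus strand, Mcm6), chr7:102441445-102441694 (plus strand, Rrm1) and chr1:20820313-20820562 (minus strand, Mcm3). The genes themselves span chr7:135689784-135716361 (Mki67), chr10:69335146-69352938 (Cdk1), chr1:128331590-128359664 (Mcm6), chr7:102441695-102469771 (Rrm1) and chr1:20802968-20820312 (Mcm3) in GENCODE M21. Of the Cdk1 sequence the last 26 bases lie in an annotated exon, and no base of the other sequences does. Capitals mark E2F-type matches (TTCCCGC or TTGGCGC), CHR matches (TTTGAA or TTCGAA) and CCAAT boxes (CCAAT), on either strand.
Mki67: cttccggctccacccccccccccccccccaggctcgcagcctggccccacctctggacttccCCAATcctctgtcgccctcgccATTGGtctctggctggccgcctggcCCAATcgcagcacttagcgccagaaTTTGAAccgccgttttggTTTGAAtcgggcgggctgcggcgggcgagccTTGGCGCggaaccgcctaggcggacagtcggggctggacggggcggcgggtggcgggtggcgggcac
Cdk1: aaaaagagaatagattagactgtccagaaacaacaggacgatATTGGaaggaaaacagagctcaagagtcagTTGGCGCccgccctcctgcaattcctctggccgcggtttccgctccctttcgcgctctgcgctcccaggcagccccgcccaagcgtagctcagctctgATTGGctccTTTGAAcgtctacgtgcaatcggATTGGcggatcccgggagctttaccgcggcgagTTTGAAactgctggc
Mcm6: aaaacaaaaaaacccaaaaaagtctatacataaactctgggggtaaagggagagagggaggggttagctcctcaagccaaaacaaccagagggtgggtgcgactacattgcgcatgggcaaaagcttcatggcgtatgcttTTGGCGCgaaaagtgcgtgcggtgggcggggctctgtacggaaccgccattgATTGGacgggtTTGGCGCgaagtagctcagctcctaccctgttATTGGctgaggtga
Rrm1: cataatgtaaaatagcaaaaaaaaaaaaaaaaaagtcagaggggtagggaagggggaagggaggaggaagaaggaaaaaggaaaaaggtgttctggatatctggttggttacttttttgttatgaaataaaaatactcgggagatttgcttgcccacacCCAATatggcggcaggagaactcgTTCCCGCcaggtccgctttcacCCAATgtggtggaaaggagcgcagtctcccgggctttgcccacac
Mcm3: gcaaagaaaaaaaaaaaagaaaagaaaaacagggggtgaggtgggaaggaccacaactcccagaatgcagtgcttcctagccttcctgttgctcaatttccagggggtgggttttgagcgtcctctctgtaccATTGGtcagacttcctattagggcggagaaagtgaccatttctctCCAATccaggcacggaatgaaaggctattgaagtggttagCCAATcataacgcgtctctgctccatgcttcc
The Mki67 sequence holds CHR matches that begin 116 and 98 bases before the start, an E2F-type match at 67 bases and 3 CCAAT boxes. In Cdk1, CHR matches begin 71 and 15 bases before the start. Mcm6 and Rrm1 hold E2F-type matches and CCAAT boxes but no CHR match, and the printed stretch of Mcm3 holds CCAAT boxes only. Mcm3 is not without E2F-type letters, since 3 such matches begin 19, 39 and 42 bases after its start, beyond the printed end and within the window counted below. A CCAAT box on the other strand reads ATTGG and can share letters with TTGGCGC, and TTCGAA is its own reverse complement. No matches overlap in these 5 sequences, and the shares below count windows with any match.

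The same letters were counted in the 300-base windows, 250 before to 50 after the start, of the 33 members that the RefSeq table held. These have 35 windows, 14 of S-phase and 21 of mitotic genes, against 32851 windows of all genes. E2F-type matches were in 8 of 14 S-phase windows (57.1%) and in 3 of 21 mitotic windows (14.3%), against 6.81% of all windows. CHR matches were in 2 of 14 S-phase windows (14.3%) and in 17 of 21 mitotic windows (81.0%), against 19.2% of all windows. CCAAT boxes were in 9 of 14 (64.3%) and in 19 of 21 (90.5%), against 37.4% of all. A match is a description of letters and not of binding. Ccne2, Tpx2, Ccna2, Aurkb, Mcm4, Gmnn and Kif20a had no window.

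Gene counts per library ran between 23532900 and 27948500 in peritoneal, between 13383300 and 16053000 in choroid plexus, between 22203200 and 32611900 in MHC II-high dura, between 26312500 and 30398600 in MHC II-low dura and between 15312600 and 17156200 in microglia libraries. Marker genes of each labelled cell type were summed per library. The 7 peritoneal macrophage markers (Gata6, Icam2 and others) summed to 18922–23484 CPM (counts per 1000000 gene counts) in peritoneal libraries and to at most 150.6 CPM elsewhere. The 7 microglia markers (Tmem119, P2ry12, Sall1 and others) came, in CPM, to 386–528 in peritoneal, 7608–8329 in choroid plexus, 3358–3805 in MHC II-high dura, 4421–5237 in MHC II-low dura and 30032–39893 in microglia libraries, with Sall1 at 0 in peritoneal libraries. The 7 border macrophage markers (Mrc1, Pf4, Ms4a7 and others) came, in CPM, to 1115–2381 in peritoneal, 3348–3804 in choroid plexus, 7434–9279 in MHC II-high dura, 12193–13265 in MHC II-low dura and 18–25.8 in microglia libraries. Choroid plexus libraries thus held more of the microglia than of the border macrophage markers. Microglia library 3 stood apart, since its 7 choroid plexus epithelium markers (Ttr and others) summed to 11096 CPM, against 49.8, 393 and 170.2 CPM in microglia libraries 1, 4 and 5 and 2231–3848 CPM in choroid plexus libraries. Neutrophil, erythroid, T cell and NK cell markers summed to at most 6.56 CPM in any library. B cell markers reached 72.5 CPM (choroid plexus), dendritic cell markers 88.7 CPM (MHC II-high dura), neuron and glia markers 86.0 CPM (peritoneal) and endothelium markers 129 CPM (microglia). In bulk RNA, fewer dividing cells and less of these transcripts per cell cannot be told apart.

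The cell cycle genes were lowest in microglia and, with few exceptions, highest in peritoneal macrophages. Microglia had the lowest mean of the 5 populations for all 40 genes. Peritoneal macrophages had the highest mean for 37, namely all 16 S-phase and 21 mitotic genes. Kif23 and Cenpe were highest in MHC II-high dura and Cenpf in MHC II-low dura. One order, peritoneal above MHC II-high dura, MHC II-low dura, choroid plexus and microglia, held for 30 genes, 10 of the S-phase and 20 of the mitotic class. In edgeR's quasi-likelihood F test over all 5 populations, all 40 differed at an adjusted p under 0.05, against 81.4% of all genes tested. The weakest of them was Pcna (adjusted p = 0.0183). The full set took up 0.160–0.283% of gene counts in peritoneal, 0.0582–0.0848% in choroid plexus, 0.0897–0.135% in MHC II-high dura, 0.0673–0.104% in MHC II-low dura and 0.0300–0.0337% in microglia libraries.

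**Figure D1:**
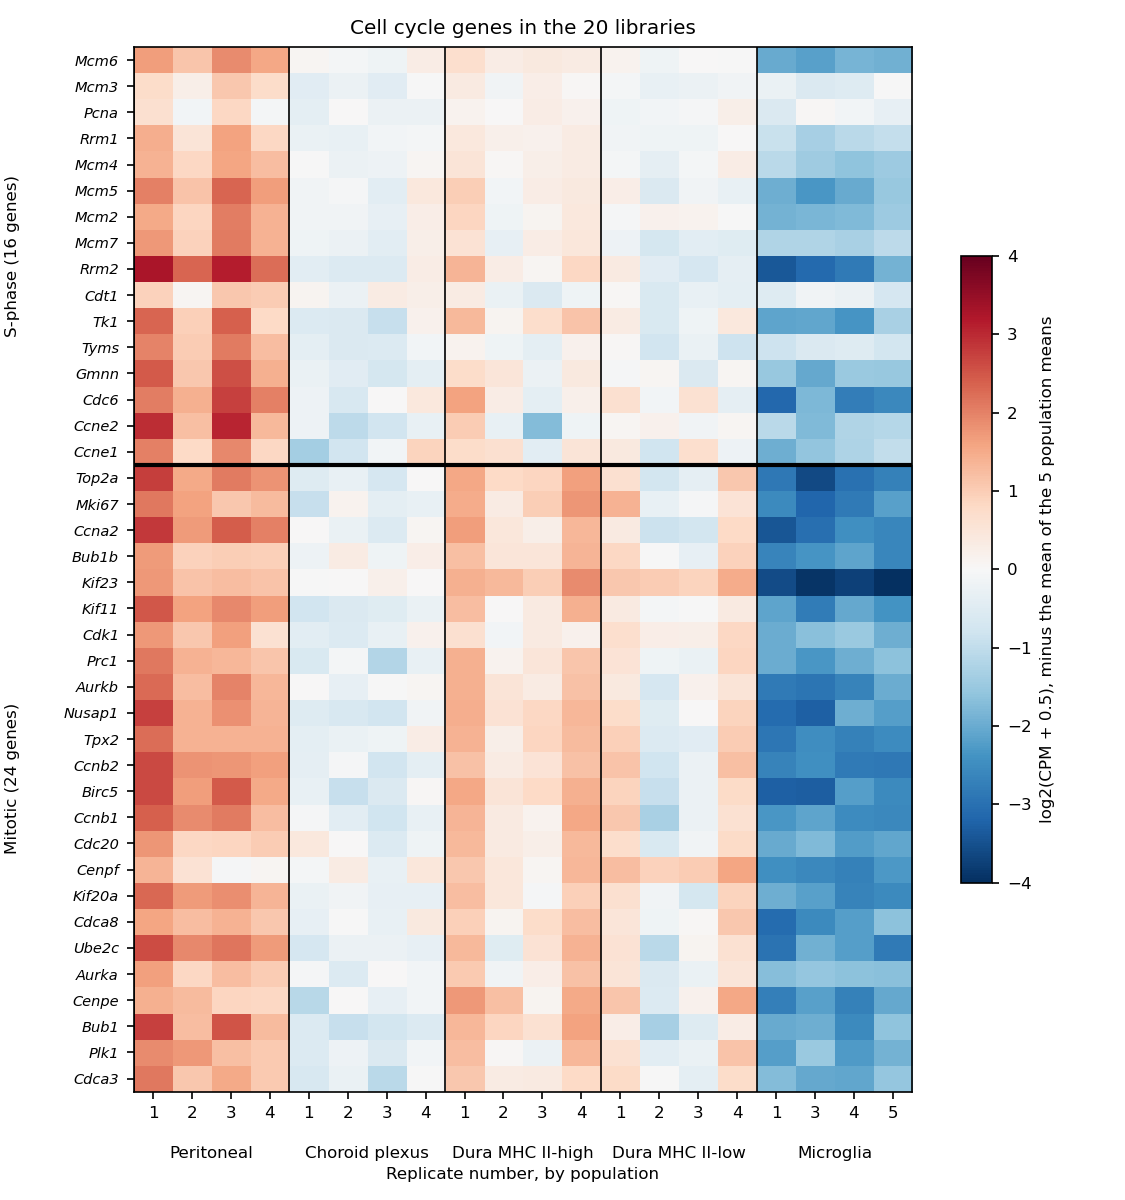
Each row is one of the 40 genes, grouped by class, and each column one of the 20 libraries; colour shows log2(CPM + 0.5) minus the mean of the 5 population means. Microglia columns are the lowest for most genes and peritoneal columns the highest, and within the dura populations libraries 1 and 4 are higher than libraries 2 and 3 in most mitotic genes.

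The levels below are CPM on TMM-adjusted library sizes, in the order of libraries 1, 2, 3 and 4, and 1, 3, 4 and 5 for microglia. Fold changes are log2 ± SE from edgeR with 4 libraries in each population, positive where the population named first is higher. A gene is called higher or lower at an adjusted p under 0.05, over all genes tested, and at least a 2-fold change.

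Cdk1 and its cyclins carry the cell from G1 into mitosis. Cdk1, the kinase that drives entry into mitosis, had 46.4, 28.7, 43.5 and 21 CPM in peritoneal libraries and 10.1, 9.1, 10.9 and 15.3 CPM in choroid plexus libraries. For Cdk1, MHC II-high dura libraries had 21.3, 12.4, 17.6 and 15.4 CPM, MHC II-low dura libraries 21.7, 16.2, 16.1 and 24.4 CPM and microglia libraries 3.07, 3.89, 4.46 and 3.11 CPM. Every microglia value lay below every other, and the choroid plexus values lay below all MHC II-low dura values but overlapped those of MHC II-high dura. Against microglia, Cdk1 was higher by 3.26 ± 0.26 in peritoneal, 1.64 ± 0.26 in choroid plexus, 2.20 ± 0.26 in MHC II-high dura and 2.43 ± 0.26 in MHC II-low dura macrophages. The difference between both dura populations was -0.23 ± 0.24 (adjusted p = 0.608, edgeR). Ccna2, cyclin A2, which partners Cdk2 in S phase and Cdk1 in G2, had 80.9, 37.3, 61.7 and 46.2 CPM in peritoneal libraries and 11.2, 9.03, 7.31 and 11.7 CPM in choroid plexus libraries. For Ccna2, MHC II-high dura libraries had 36.1, 15.2, 13 and 28.3 CPM, MHC II-low dura libraries 14.1, 5.78, 6.44 and 19.6 CPM and microglia libraries 0.564, 0.926, 1.62 and 1.39 CPM. The peritoneal values did not overlap those of any other population, and MHC II-low dura overlapped choroid plexus. Ccnb1, the main mitotic cyclin, had 44.7, 31.5, 35.3 and 19.5 CPM in peritoneal libraries and 7.76, 5.93, 4.4 and 6.42 CPM in choroid plexus libraries. For Ccnb1, MHC II-high dura libraries had 21.3, 10.5, 8.92 and 24.5 CPM, MHC II-low dura libraries 17.6, 2.96, 6.71 and 12.7 CPM and microglia libraries 1.19, 1.48, 0.984 and 0.925 CPM. MHC II-low dura spanned the widest ratio of these populations, with library 2 below every choroid plexus value and library 1 within the MHC II-high range. Ccnb2, the second B-type cyclin, averaged 35.1 ± 12.7 CPM in peritoneal, 6.33 ± 1.35 in choroid plexus, 15.5 ± 4.62 in MHC II-high dura, 12.5 ± 7.82 in MHC II-low dura and 0.867 ± 0.176 in microglia libraries (SD, n = 4). Against microglia, Ccnb1 was higher by 4.83 ± 0.51, 2.41 ± 0.49, 3.83 ± 0.50 and 3.11 ± 0.49 in peritoneal, choroid plexus, MHC II-high and MHC II-low dura macrophages.

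The E-type cyclins activate Cdk2 at the start of S phase. Ccne2, cyclin E2, had 15.9, 4.34, 16.9 and 4.63 CPM in peritoneal libraries and 1.33, 0.528, 0.745 and 1.21 CPM in choroid plexus libraries. For Ccne2, MHC II-high dura libraries had 3.75, 1.2, 0.13 and 1.38 CPM, MHC II-low dura libraries 1.7, 1.86, 1.39 and 1.73 CPM and microglia libraries 0.502, 0.123, 0.405 and 0.463 CPM. Peritoneal libraries 1 and 3 stood far above libraries 2 and 4, and every other population stayed below all of them. Ccne2 was higher in peritoneal macrophages than in choroid plexus (3.45 ± 0.68), MHC II-high dura (2.68 ± 0.65) and MHC II-low dura macrophages (2.64 ± 0.64). Its microglia counts summed to 24 over 4 libraries. The calls against microglia in MHC II-high dura (2.11 ± 0.70) and MHC II-low dura (2.15 ± 0.70) were lost without microglia library 3, and the first also without MHC II-high library 1. In choroid plexus Ccne2 was not called (1.34 ± 0.72, adjusted p = 0.147). Ccne1 averaged 6.35 ± 3.05 CPM in peritoneal, 1.78 ± 1.58 in choroid plexus, 2.78 ± 1.01 in MHC II-high dura, 2.13 ± 1.08 in MHC II-low dura and 0.42 ± 0.26 in microglia libraries (SD, n = 4). Its call in choroid plexus against microglia (2.08 ± 0.65) was lost without choroid plexus library 4 or microglia library 1. Of the Ccne2 exon length 17.4% is shared with Ints8, so part of its counts is uncertain.

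The MCM proteins form the ring-shaped helicase that is loaded at origins and unwinds DNA. Mcm6, a helicase subunit, had 277, 189, 325 and 259 CPM in peritoneal libraries and 92.2, 83.1, 78 and 107 CPM in choroid plexus libraries. For Mcm6, MHC II-high dura libraries had 139.6, 108, 114 and 109 CPM, MHC II-low dura libraries 96.5, 77.9, 89.3 and 85.7 CPM and microglia libraries 21.2, 19, 23.9 and 22.5 CPM. Peritoneal values lay above all others, microglia values below all others, and those of the brain border populations between 77.9 and 139.6 CPM. Mcm6 was higher than in microglia by 3.60 ± 0.15 in peritoneal, 2.05 ± 0.15 in choroid plexus, 2.44 ± 0.15 in MHC II-high dura and 2.01 ± 0.15 in MHC II-low dura macrophages. Mcm2, another subunit of the ring, had 124, 78.9, 178 and 115 CPM in peritoneal libraries and 39.3, 39.2, 34.3 and 51.6 CPM in choroid plexus libraries. For Mcm2, MHC II-high dura libraries had 78.8, 38.3, 46.2 and 58.6 CPM, MHC II-low dura libraries 42, 49.2, 47.3 and 42.4 CPM and microglia libraries 11.4, 11.8, 12.5 and 15.4 CPM. It followed the same pattern, with 3.28 ± 0.24, 1.69 ± 0.23, 2.12 ± 0.23 and 1.82 ± 0.23 against microglia. Mcm3, a subunit of the same ring, had 157, 111, 200.2 and 157 CPM in peritoneal libraries and 68.4, 80.5, 69.6 and 94 CPM in choroid plexus libraries. For Mcm3, MHC II-high dura libraries had 122, 86.5, 114 and 96.8 CPM, MHC II-low dura libraries 89.2, 76.4, 79.4 and 86.1 CPM and microglia libraries 79.2, 62.7, 65.5 and 92.6 CPM. Here microglia overlapped choroid plexus and both dura populations, and the peritoneal values stood above those of microglia, choroid plexus and MHC II-low dura and overlapped MHC II-high dura. Mcm3 was 0.06 ± 0.16 in choroid plexus, 0.48 ± 0.16 in MHC II-high and 0.14 ± 0.16 in MHC II-low dura against microglia, none called. Its peritoneal difference from microglia (1.06 ± 0.16) was just past 2-fold and fell under it without peritoneal library 3 or microglia library 3 or 4.

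The other MCM genes also separated peritoneal macrophages from microglia. Mcm5 was higher than in microglia by 3.85 ± 0.30 in peritoneal, 1.97 ± 0.29 in choroid plexus, 2.43 ± 0.29 in MHC II-high dura and 1.83 ± 0.28 in MHC II-low dura macrophages. Mcm4 gave 2.70 ± 0.17, 1.31 ± 0.16, 1.70 ± 0.17 and 1.37 ± 0.16 in that order, and Mcm7 2.81 ± 0.23, 1.08 ± 0.22, 1.50 ± 0.22 and 0.76 ± 0.22. The Mcm7 difference in MHC II-low dura was not called, and the one in choroid plexus fell under 2-fold without choroid plexus library 4 or microglia library 4. Exons of Mcm7 share 12.6% of their length with Cops6, Ap4m1 and the microRNA genes Mir25 and Mir93.

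Pcna, the sliding clamp that tethers DNA polymerases, differed least. Pcna had 129, 75.3, 145 and 77 CPM in peritoneal libraries and 61.7, 82, 69.5 and 69.5 CPM in choroid plexus libraries. For Pcna, MHC II-high dura libraries had 89.5, 83.2, 99.2 and 91.1 CPM, MHC II-low dura libraries 72.3, 75.6, 79.1 and 96.2 CPM and microglia libraries 54.7, 83.9, 75.7 and 64.3 CPM. Peritoneal libraries 1 and 3 stood above all others, while libraries 2 and 4 lay within the ranges of choroid plexus, MHC II-low dura and microglia and below MHC II-high dura. Pcna was called in none of the 10 comparisons between populations. Its difference between peritoneal macrophages and microglia was 0.61 ± 0.18 (adjusted p = 0.00550), significant in edgeR but under 2-fold, and that between choroid plexus and microglia was 0.02 ± 0.18. Per kilobase of exon Pcna stood at 44.4 CPM in peritoneal, 29.5 in choroid plexus, 37.8 in MHC II-high dura, 33.7 in MHC II-low dura and 29.0 in microglia, the highest of the 40 genes in each population but the peritoneal one, where Mcm6 reached 56.3 CPM per kilobase.

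The licensing factors differed more among themselves. Cdc6, which loads the helicase with Cdt1, averaged 21.4 ± 8.34 CPM in peritoneal, 4.31 ± 1.45 in choroid plexus, 7.18 ± 5.08 in MHC II-high dura, 5.45 ± 2.01 in MHC II-low dura and 0.388 ± 0.376 in microglia libraries (SD, n = 4). In microglia its counts summed to 25 over 4 libraries, and it was higher by 5.77 ± 0.61 in peritoneal, 3.46 ± 0.59 in choroid plexus, 4.20 ± 0.59 in MHC II-high dura and 3.79 ± 0.59 in MHC II-low dura macrophages. Cdt1 averaged 31.3 ± 8.58 CPM in peritoneal, 19.1 ± 3.12 in choroid plexus, 15.8 ± 4.45 in MHC II-high dura, 14.1 ± 2.86 in MHC II-low dura and 13.4 ± 2.34 in microglia libraries (SD, n = 4). It was higher than in microglia in peritoneal macrophages (1.23 ± 0.23) but was not called in choroid plexus (0.51 ± 0.23), MHC II-high dura (0.24 ± 0.22) or MHC II-low dura (0.08 ± 0.22). Gmnn, geminin, which blocks Cdt1 after S phase has begun, averaged 30.8 ± 15 CPM in peritoneal, 5.13 ± 0.686 in choroid plexus, 9.51 ± 2.57 in MHC II-high dura, 6.68 ± 1.4 in MHC II-low dura and 2.0 ± 0.428 in microglia libraries (SD, n = 4).

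Deoxynucleotides for replication come from ribonucleotide reductase, whose subunits are encoded by Rrm1 and Rrm2, and from thymidylate synthase (Tyms) and thymidine kinase 1 (Tk1). Rrm1, the large and stable subunit, had 161, 84.2, 178 and 104 CPM in peritoneal libraries and 48, 47.3, 53.7 and 55 CPM in choroid plexus libraries. For Rrm1, MHC II-high dura libraries had 79.2, 67.1, 65.2 and 72.8 CPM, MHC II-low dura libraries 53.5, 51.8, 51.5 and 59.1 CPM and microglia libraries 31.3, 22.8, 27.3 and 30.2 CPM. The microglia values were the lowest and the peritoneal the highest, with no overlap with the other populations. Rrm2, the small subunit that is made in S phase, had 111, 58.8, 103 and 54.1 CPM in peritoneal libraries and 8.28, 7.58, 7.52 and 13.8 CPM in choroid plexus libraries. For Rrm2, MHC II-high dura libraries had 29.5, 13.8, 11.9 and 20.4 CPM, MHC II-low dura libraries 14.5, 8.0, 6.9 and 8.64 CPM and microglia libraries 0.627, 0.864, 1.16 and 2.64 CPM. The same order held over a far wider range. Against microglia, Rrm1 was higher by 2.24 ± 0.18 in peritoneal and 1.35 ± 0.17 in MHC II-high dura, and by less than 2-fold in choroid plexus (0.87 ± 0.17) and MHC II-low dura (0.95 ± 0.17). Rrm2 was higher by 5.96 ± 0.46 in peritoneal, 2.82 ± 0.44 in choroid plexus, 3.85 ± 0.44 in MHC II-high dura and 2.85 ± 0.43 in MHC II-low dura. Tyms was called against microglia in peritoneal macrophages alone (2.41 ± 0.26), with 0.29 ± 0.25 in choroid plexus, 0.66 ± 0.25 in MHC II-high dura and 0.28 ± 0.25 in MHC II-low dura. Tk1 averaged 35.1 ± 19.5 CPM in peritoneal, 7.26 ± 2.71 in choroid plexus, 18.4 ± 6.32 in MHC II-high dura, 10.2 ± 3.27 in MHC II-low dura and 2.25 ± 0.985 in microglia libraries (SD, n = 4).

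**Figure D2:**
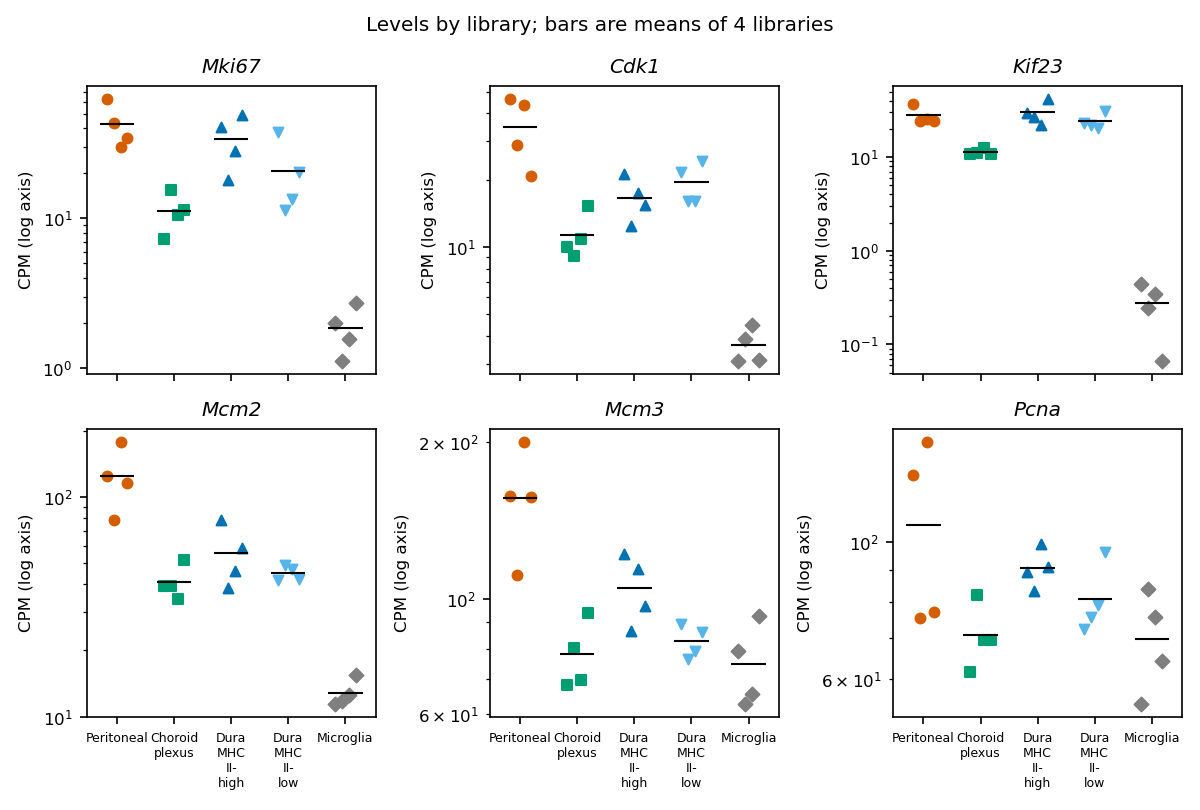
Points are libraries and bars are the means of 4 libraries; the vertical axis is CPM on a log scale. Microglia lie well below all others for Mki67, Cdk1, Kif23 and Mcm2, but overlap the choroid plexus and MHC II-low dura libraries for Mcm3 and Pcna.

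Mki67 and Top2a act on chromosomes. Mki67, the antigen Ki-67, which coats mitotic chromosomes and is the usual stain for cycling cells, had 62.6, 43.6, 30.2 and 34.2 CPM in peritoneal libraries and 7.24, 15.6, 10.5 and 11.4 CPM in choroid plexus libraries. For Mki67, MHC II-high dura libraries had 40.7, 18, 28.3 and 48.9 CPM, MHC II-low dura libraries 37.8, 11.3, 13.5 and 20.6 CPM and microglia libraries 2.01, 1.11, 1.56 and 2.71 CPM. Microglia values were below all others and choroid plexus values below all MHC II-high dura values, while peritoneal and both dura populations overlapped. Mki67 was higher than in microglia by 4.53 ± 0.45 in peritoneal, 2.60 ± 0.44 in choroid plexus, 4.20 ± 0.45 in MHC II-high dura and 3.49 ± 0.44 in MHC II-low dura macrophages. Between peritoneal and MHC II-high dura macrophages Mki67 was not called (0.33 ± 0.37, adjusted p = 0.475, edgeR). Top2a, topoisomerase II alpha, which untangles the copied DNA, had 159, 66.1, 97 and 80.9 CPM in peritoneal libraries and 15.6, 18.3, 14.2 and 23 CPM in choroid plexus libraries. For Top2a, MHC II-high dura libraries had 67.4, 40.04, 42 and 71.4 CPM, MHC II-low dura libraries 35.4, 13.3, 17.6 and 48.3 CPM and microglia libraries 2.7, 1.42, 2.43 and 3.04 CPM. Peritoneal library 1 was the highest of all 20 libraries, and MHC II-low dura libraries 2 and 3 lay below or within the choroid plexus range. Against microglia its differences were 5.39 ± 0.45, 2.89 ± 0.43, 4.53 ± 0.44 and 3.58 ± 0.43 in peritoneal, choroid plexus, MHC II-high and MHC II-low dura macrophages.

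Mitotic kinases time the steps of chromosome alignment and separation. Aurkb, the kinase of the chromosomal passenger complex, had 53.9, 25.7, 43.9 and 27.8 CPM in peritoneal libraries and 10.7, 8.51, 10.5 and 11.4 CPM in choroid plexus libraries. For Aurkb, MHC II-high dura libraries had 29.3, 15.4, 13.7 and 24.9 CPM, MHC II-low dura libraries 14.2, 6.52, 12.2 and 15.4 CPM and microglia libraries 1.07, 0.988, 1.27 and 2.31 CPM. Microglia were below all others and peritoneal values overlapped those of MHC II-high dura. Its differences from microglia were 4.75 ± 0.37 in peritoneal, 2.87 ± 0.35 in choroid plexus, 3.89 ± 0.36 in MHC II-high dura and 3.10 ± 0.35 in MHC II-low dura. Bub1b, a spindle checkpoint protein, had 46.5, 26.9, 28 and 27.3 CPM in peritoneal libraries and 12, 17.8, 12.3 and 17 CPM in choroid plexus libraries. For Bub1b, MHC II-high dura libraries had 32.6, 19.9, 19.7 and 37 CPM, MHC II-low dura libraries 24.9, 13.8, 10.9 and 26.9 CPM and microglia libraries 1.82, 2.35, 2.84 and 1.85 CPM. Peritoneal library 1 stood above the rest of its group, which lay within the MHC II-high dura range. Bub1b was higher than in microglia by 3.85 ± 0.33 in peritoneal, 2.74 ± 0.32 in choroid plexus, 3.62 ± 0.33 in MHC II-high dura and 3.11 ± 0.32 in MHC II-low dura. Bub1, a checkpoint kinase, had 34.9, 11.9, 30.2 and 12.4 CPM in peritoneal libraries and 3.18, 2.31, 2.71 and 3.18 CPM in choroid plexus libraries. For Bub1, MHC II-high dura libraries had 12.9, 9.1, 7.7 and 15.7 CPM, MHC II-low dura libraries 5.87, 1.64, 3.2 and 5.99 CPM and microglia libraries 0.815, 0.864, 0.405 and 1.26 CPM. MHC II-high dura values lay above all MHC II-low dura values and all choroid plexus values, and reached into the peritoneal range in libraries 1 and 4. Bub1 was higher in MHC II-high than in MHC II-low dura by 1.44 ± 0.40 (adjusted p = 0.0238, edgeR).

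The other members of this role were also lower in microglia than in each other population. Birc5 (survivin), which with Cdca8 (borealin) places Aurkb on chromosomes, averaged 34.5 ± 13.3 CPM in peritoneal, 5.48 ± 1.71 in choroid plexus, 16.8 ± 5.6 in MHC II-high dura, 9.24 ± 5.15 in MHC II-low dura and 0.674 ± 0.444 in microglia libraries (SD, n = 4). Its peritoneal difference from microglia was 5.66 ± 0.54. Plk1, which promotes mitotic entry and spindle assembly, averaged 16.7 ± 4.72 CPM in peritoneal, 4.26 ± 0.804 in choroid plexus, 9.72 ± 5.27 in MHC II-high dura, 7.53 ± 4.1 in MHC II-low dura and 1.09 ± 0.418 in microglia libraries (SD, n = 4). Aurka, the kinase of the spindle poles, averaged 17.8 ± 4.54 CPM in peritoneal, 6.6 ± 1.13 in choroid plexus, 12.3 ± 5.23 in MHC II-high dura, 8.11 ± 3.11 in MHC II-low dura and 2.04 ± 0.124 in microglia libraries (SD, n = 4), and had the smallest peritoneal difference from microglia of the mitotic genes (3.12 ± 0.32). Cdca8 gave 4.08 ± 0.38 in peritoneal, 2.66 ± 0.38 in choroid plexus, 3.56 ± 0.38 in MHC II-high dura and 3.16 ± 0.38 in MHC II-low dura against microglia.

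Spindle, kinetochore and cytokinesis genes held the largest difference. Kif23, the motor of centralspindlin, which organises the midzone for cytokinesis, had 37.3, 24.3, 25.8 and 24.4 CPM in peritoneal libraries and 10.7, 11, 12.5 and 10.9 CPM in choroid plexus libraries. For Kif23, MHC II-high dura libraries had 29.9, 27, 21.9 and 41.6 CPM, MHC II-low dura libraries 23.2, 22.2, 20.6 and 31 CPM and microglia libraries 0.439, 0.247, 0.347 and 0.0661 CPM. Microglia had 18 counts in all over their 4 libraries. Choroid plexus values lay below both dura populations and the peritoneal macrophages, which overlapped each other. Kif23 was higher than in microglia by 6.62 ± 0.31 in peritoneal (98.5-fold), 5.31 ± 0.31 in choroid plexus (39.7-fold), 6.73 ± 0.31 in MHC II-high dura (106-fold) and 6.42 ± 0.31 in MHC II-low dura macrophages (85.4-fold). Kif11, the motor that pushes spindle poles apart, had 64.7, 34.8, 43 and 36.4 CPM in peritoneal libraries and 6.36, 7.25, 7.86 and 9.21 CPM in choroid plexus libraries. For Kif11, MHC II-high dura libraries had 26.5, 11.2, 14.4 and 30.7 CPM, MHC II-low dura libraries 14.3, 10.5, 11 and 14.3 CPM and microglia libraries 2.19, 1.17, 2.32 and 1.72 CPM. Peritoneal values lay above all others, and Kif11 was higher than in microglia by 4.59 ± 0.33 in peritoneal, 2.05 ± 0.31 in choroid plexus, 3.48 ± 0.32 in MHC II-high dura and 2.75 ± 0.31 in MHC II-low dura. Cenpe, a kinetochore motor that aligns chromosomes, had 16, 14.4, 10.9 and 10.4 CPM in peritoneal libraries and 2.36, 5.8, 4.4 and 5.21 CPM in choroid plexus libraries. For Cenpe, MHC II-high dura libraries had 20.2, 13.8, 6.26 and 17.3 CPM, MHC II-low dura libraries 12.9, 3.76, 6.44 and 17.6 CPM and microglia libraries 0.439, 0.864, 0.463 and 0.991 CPM. Dura values spread widely in each population and overlapped the peritoneal ones. Against microglia Cenpe was higher by 4.22 ± 0.50 in peritoneal and 4.38 ± 0.50 in MHC II-high dura. Cenpe was lower in choroid plexus than in MHC II-high dura (-1.69 ± 0.42) and MHC II-low dura (-1.19 ± 0.42). The second of these calls was lost without choroid plexus library 1, 3 or 4 or MHC II-low library 1 or 4.

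Of the remaining spindle genes, Cenpf, a kinetochore protein of G2 and mitosis, departed from the common order. It averaged 12.6 ± 6.23 CPM in peritoneal, 8.86 ± 2.21 in choroid plexus, 14.6 ± 5.76 in MHC II-high dura, 19.4 ± 4.29 in MHC II-low dura and 1.01 ± 0.192 in microglia libraries (SD, n = 4), and the peritoneal differences from choroid plexus (0.50 ± 0.31, adjusted p = 0.163) and MHC II-low dura (-0.62 ± 0.30, adjusted p = 0.0847) were not called by edgeR. Without peritoneal library 1 the Cenpf difference from MHC II-low dura was -1.01, past the threshold for a call. Tpx2, which activates Aurka on the spindle, averaged 29.9 ± 10.1 CPM in peritoneal, 8.54 ± 2.04 in choroid plexus, 18.9 ± 6.19 in MHC II-high dura, 12.6 ± 7.16 in MHC II-low dura and 1.06 ± 0.194 in microglia libraries (SD, n = 4). Nusap1, a microtubule bundler near chromosomes, averaged 34.2 ± 17.3 CPM in peritoneal, 5.9 ± 1.25 in choroid plexus, 18.7 ± 5.29 in MHC II-high dura, 11.3 ± 4.92 in MHC II-low dura and 1.08 ± 0.688 in microglia libraries (SD, n = 4). Prc1, which crosslinks midzone microtubules, gave 3.72 ± 0.36, 1.63 ± 0.35, 3.04 ± 0.36 and 2.47 ± 0.35 against microglia in peritoneal, choroid plexus, MHC II-high and MHC II-low dura macrophages. Kif20a, another cytokinesis motor, gave 4.69 ± 0.39, 2.49 ± 0.38, 3.55 ± 0.38 and 3.09 ± 0.38 in the same order, with 29.3% of its exon length shared with Cdc23. Prc1 shares 11.1% with Rccd1 and Ccna2 12.5% with Exosc9.

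Mitotic exit needs the anaphase-promoting complex, which Cdc20 activates and for which Ube2c supplies ubiquitin. Cdc20 had 31.1, 16, 16.5 and 18.3 CPM in peritoneal libraries and 12.1, 8.9, 5.96 and 7.88 CPM in choroid plexus libraries. For Cdc20, MHC II-high dura libraries had 22.6, 11.5, 10.5 and 22.4 CPM, MHC II-low dura libraries 14.8, 5.59, 7.99 and 15.6 CPM and microglia libraries 1.82, 2.28, 1.51 and 1.72 CPM. Peritoneal library 1 stood alone and the other peritoneal libraries lay within the MHC II-high dura range. Cdc20 was higher than in microglia by 3.48 ± 0.38 in peritoneal, 2.25 ± 0.37 in choroid plexus, 3.19 ± 0.37 in MHC II-high dura and 2.58 ± 0.37 in MHC II-low dura. Ube2c averaged 27.2 ± 7.69 CPM in peritoneal, 4.45 ± 0.667 in choroid plexus, 11.1 ± 5.66 in MHC II-high dura, 6.74 ± 3.12 in MHC II-low dura and 0.688 ± 0.405 in microglia libraries (SD, n = 4), and shares 22.8% of its exon length with Tnnc2. Cdca3, which takes part in the turnover of mitotic inhibitors, averaged 12.5 ± 4.77 CPM in peritoneal, 2.89 ± 1.04 in choroid plexus, 6.84 ± 1.87 in MHC II-high dura, 5.37 ± 2.21 in MHC II-low dura and 0.783 ± 0.226 in microglia libraries (SD, n = 4).

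Against microglia nearly all members were called higher, and none lower. Peritoneal macrophages had 39 of 40 higher, 15 S-phase and 24 mitotic genes, where 18.9% of all genes tested were called higher. In choroid plexus macrophages 34 were higher, 10 S-phase and 24 mitotic genes, with 12.1% of all genes called higher. MHC II-high dura macrophages had 36 higher, 12 and 24, with 15.7% of all genes. MHC II-low dura macrophages had 34 higher, 10 and 24, with 13.8% of all genes. Without microglia library 3, the library with choroid plexus markers, 38, 34, 35 and 33 members were higher in peritoneal, choroid plexus, MHC II-high and MHC II-low dura macrophages, all 24 mitotic genes in each. These 4 comparisons share the microglia libraries. The members not called were S-phase genes, namely Pcna in all 4 comparisons, Mcm3, Cdt1 and Tyms in the 3 brain border populations, Rrm1 in choroid plexus and MHC II-low dura, Mcm7 in MHC II-low dura and Ccne2 in choroid plexus.

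**Figure D3:**
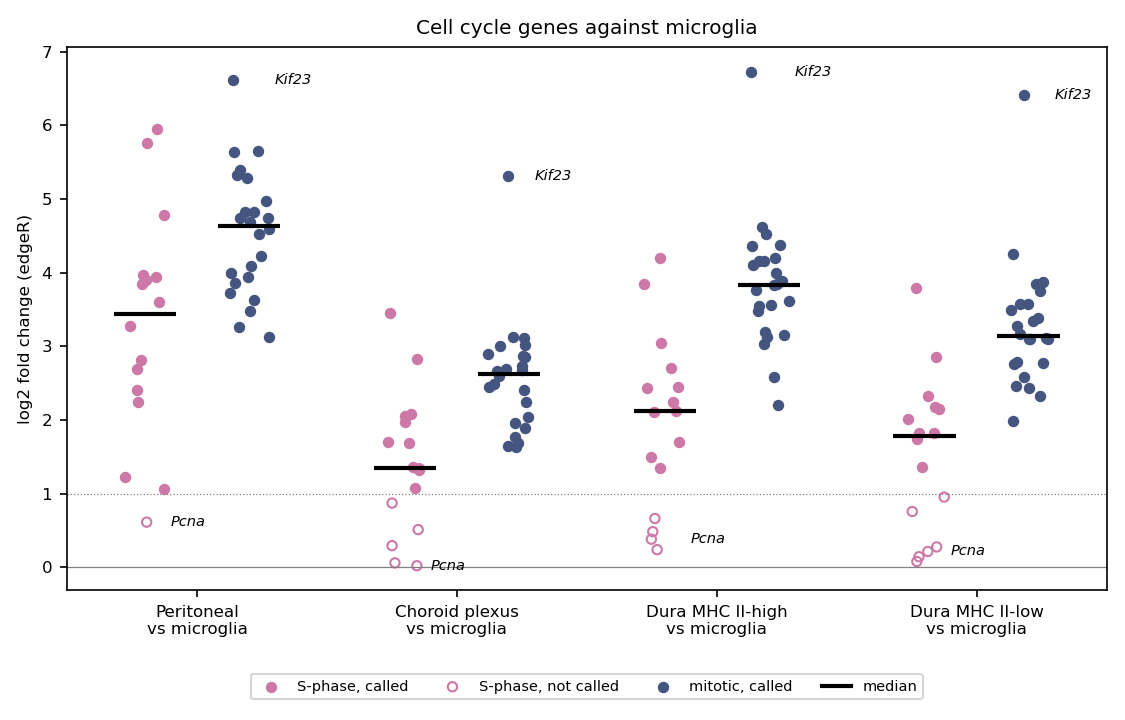
Each point is 1 of the 40 genes and its log2 fold change against microglia (edgeR), for peritoneal, choroid plexus, MHC II-high and MHC II-low dura macrophages, S-phase genes left and mitotic genes right; open points were not called, bars are class medians and the dotted line marks a 2-fold change. Kif23 has the largest values, 5.31 to 6.73, and Pcna, Mcm3, Cdt1 and Tyms lie under the dotted line outside the peritoneal population.

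Peritoneal macrophages were also above the brain border populations. Against choroid plexus 37 members were called higher, 14 S-phase and 23 mitotic genes, where 12.6% of all genes were, and Pcna, Cdt1 and Cenpf were not called. Against MHC II-low dura 31 were higher, 14 and 17, with 11.9% of all genes. Against MHC II-high dura 18 were higher, 10 and 8, with 9.18% of all genes. The largest difference from choroid plexus was that of Ccne2 (3.45 ± 0.68), followed by Rrm2 (3.13 ± 0.39), and Rrm2 gave 2.11 ± 0.37 against MHC II-high and 3.10 ± 0.38 against MHC II-low dura. The MHC II-high count rested in part on peritoneal library 1, without which 9 S-phase and 2 mitotic genes were called. Mitotic genes called were 4 without MHC II-high library 2, 5 without MHC II-high library 3 or peritoneal library 3, and 13 without MHC II-high library 1. Against MHC II-low dura, 11 mitotic genes were called higher without peritoneal library 1. Over all genes tested, the median log2 difference of peritoneal macrophages lay between -0.13 and -0.10 in its 4 comparisons, and it was at most 0.09 in the others.

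Choroid plexus macrophages had lower mitotic genes than MHC II-high dura macrophages. There, 20 members were called lower, 2 S-phase and 18 mitotic genes, where 4% of all genes were called lower. The largest were Bub1 (-2.00 ± 0.42), Cenpe (-1.69 ± 0.42) and Nusap1 (-1.66 ± 0.40), and the 2 S-phase genes were Tk1 (-1.34 ± 0.40) and Rrm2 (-1.02 ± 0.37). The count was 11 without MHC II-high library 1 or 4 and 13 without choroid plexus library 3, and in these fits no S-phase gene was called. The Rrm2 call was also lost without choroid plexus library 1 or 2 and in several fits that left out a library of another population. Against MHC II-low dura, 3 members were lower, all mitotic, where 4.18% of all genes were, namely Cenpe, Cenpf (-1.13 ± 0.31) and Kif23 (-1.10 ± 0.22). This count was 7 without MHC II-low library 2, 5 without library 3, 2 without MHC II-low library 1 or choroid plexus library 1 or 3, and none were called without MHC II-low library 4. The 7 epithelium markers reached 2231–3848 CPM in choroid plexus libraries, against 5.53–13.4 CPM in MHC II-high and 2.08–9.87 CPM in MHC II-low dura. The 6 fibroblast markers summed to 286–968 CPM, against 155–314 CPM and 138–197 CPM in the same dura populations. The 7 monocyte markers summed to 72.9–126 CPM in choroid plexus, against 1071–1263 CPM in MHC II-high and 87.4–160.0 CPM in MHC II-low dura. The 8 dendritic cell markers summed to 19.1–21.9 CPM in choroid plexus, against 70.3–88.7 CPM in MHC II-high and 53.8–81.2 CPM in MHC II-low dura. Their part in these differences was not tested.

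Between the dura populations Bub1 was the only member called, at 1 higher of 40 where 2.39% of all genes were called higher, and none was called lower. The log2 differences of the 40 members ran between -0.41 and 1.44, with a median of 0.51 beside 0.02 over all genes. This median was not tested, since members share libraries. The Bub1 call was lost without MHC II-high library 1 or 4 or MHC II-low library 2 or 3, with log2 differences of 1.17 to 1.39. Without MHC II-low library 1, Mki67 (1.17) and Rrm2 (1.27) were called beside it, and without library 4, Ccna2 (1.40) and Top2a (1.33). The 7 monocyte markers (Ly6c2, Ccr2 and others) summed to 1071–1263 CPM in MHC II-high and 87.4–160.0 CPM in MHC II-low dura, and their part in these values was not tested.

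S-phase and mitotic genes differed in how far they separated the populations. Against microglia the median log2 difference was 3.44 for S-phase and 4.64 for mitotic genes in peritoneal macrophages, beside -0.11 over all genes. It was 1.35 and 2.63 in choroid plexus, beside 0.09, 2.12 and 3.84 in MHC II-high dura, beside 0.02, and 1.78 and 3.14 in MHC II-low dura, beside 0.02. Summed CPM of the S-phase genes was 5.10-fold that of microglia in peritoneal, 1.83-fold in choroid plexus, 2.47-fold in MHC II-high dura and 1.87-fold in MHC II-low dura macrophages. Summed CPM of the mitotic genes was 23.0-fold, 5.71-fold, 13.7-fold and 9.30-fold in the same order. Peritoneal macrophages exceeded the dura populations more in S-phase genes, with medians of 1.18 and 0.86 against MHC II-high and 1.69 and 1.25 against MHC II-low dura for S-phase and mitotic genes. Choroid plexus macrophages lay below them more in mitotic genes, with -0.45 and -1.27 against MHC II-high and -0.08 and -0.71 against MHC II-low dura. The difference between the classes was not tested, since members share libraries.

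Mitotic genes made up a small share of the summed CPM of all 40 genes in microglia. The share was 41.0, 39.2, 28.2 and 31.7% in peritoneal libraries, 26.8, 28.4, 26.4 and 26.8% in choroid plexus, 40.9, 35.3, 33.7 and 46.4% in MHC II-high dura, 41.4, 28.6, 29.8 and 44.2% in MHC II-low dura and 9.97, 10.3, 11.2 and 11.0% in microglia libraries. All microglia libraries lay below all others, choroid plexus libraries were close together, and the dura and peritoneal libraries overlapped. The S-phase sum of microglia averaged 281 CPM, to which Mcm3 gave 62.7–92.6 CPM and Pcna 54.7–83.9 CPM. The share in microglia and the S-phase sums set against microglia above thus rest in large part on Mcm3 and Pcna. A score was formed for each class and library as the mean log2 CPM of its genes, each centred on the mean of the 5 population means. The mitotic minus the S-phase score was 0.11 ± 0.41 in peritoneal, -0.03 ± 0.16 in choroid plexus, 0.66 ± 0.28 in MHC II-high dura, 0.43 ± 0.54 in MHC II-low dura and -1.17 ± 0.07 in microglia libraries (SD, n = 4 each), and -1.18 in microglia without library 3. Microglia libraries ranged between -1.28 and -1.13, and the lowest of the other 16 libraries was peritoneal library 3 at -0.44.

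**Figure D4:**
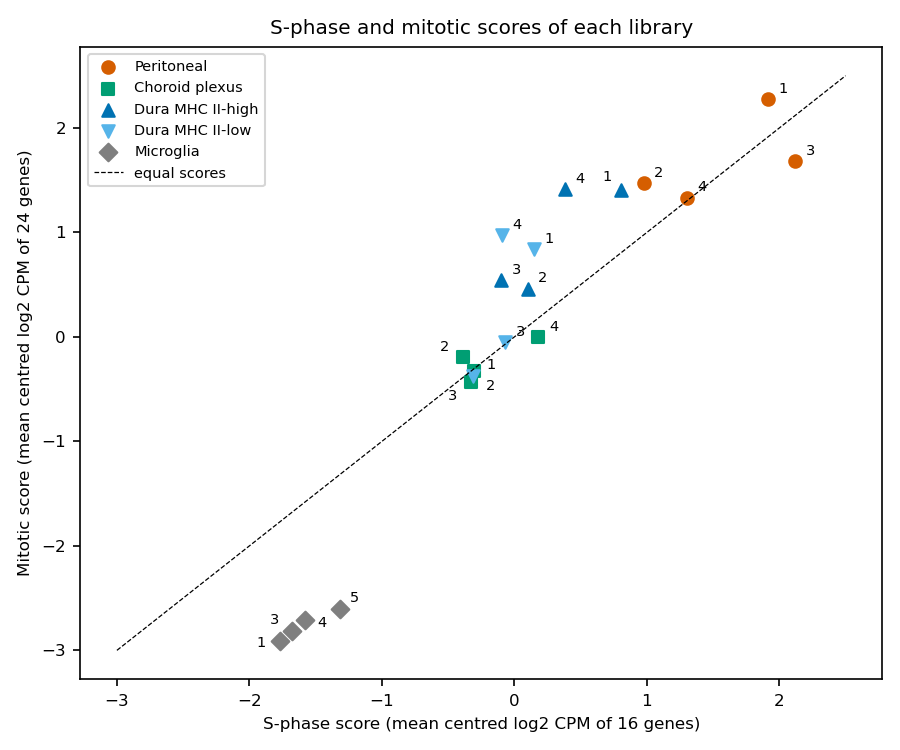
Each point is a library, with its S-phase score on the horizontal and its mitotic score on the vertical axis, both as mean centred log2 CPM; the dashed line marks equal scores. Microglia lie below the line at mitotic scores of -2.91 to -2.60. Peritoneal libraries have the highest S-phase scores, but the mitotic score of peritoneal library 4 (1.33) lies below those of MHC II-high dura libraries 1 and 4 (1.41 each).

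On a per-length scale, S-phase genes were the more abundant class by median in every population. Exon length joined all GENCODE M21 exons of a gene, which can exceed the length of a single transcript. Since the annotation used for counting is not named, levels per kilobase of different genes, those of Pcna and Mcm6 above included, compare only roughly. The median CPM per kilobase of exon was 19.4 for S-phase and 7.06 for mitotic genes in peritoneal, 5.27 and 1.53 in choroid plexus, 6.66 and 3.95 in MHC II-high dura, 4.73 and 2.71 in MHC II-low dura and 2.18 and 0.265 in microglia libraries. In microglia the highest mitotic gene stood at 0.980 CPM per kilobase, and in peritoneal macrophages at 22.9.

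Libraries of the same population differed more in these genes than in most others, though by little for S-phase genes in microglia, MHC II-low dura and choroid plexus. The spread was taken as the SD of log2 CPM over 4 libraries, and its median was 0.51 for S-phase and 0.45 for mitotic genes in peritoneal libraries, beside 0.28 over all genes tested. It was 0.25 and 0.31 beside 0.19 in choroid plexus, 0.42 and 0.56 beside 0.24 in MHC II-high dura, 0.28 and 0.74 beside 0.23 in MHC II-low dura and 0.26 and 0.46 beside 0.24 in microglia. Pooled over populations it was 0.35 for S-phase and 0.54 for mitotic genes, beside 0.29 for all genes and 0.24 for genes in the same range of mean CPM. Ccne2 had the widest pooled spread (0.99) and Mcm6 the narrowest (0.21). In the mitotic class it ran between 0.36 for Cdk1 and 0.69 for Birc5. The part of counting error in the spread of the low microglia values was not tested.

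In all populations but microglia the spread was shared among genes, so that a library was the highest or lowest for most of at least 1 class. Peritoneal library 1 was the highest of its population for all 24 mitotic genes, whereas library 3 was the highest for 14 of 16 S-phase genes and library 2 the lowest for 14. In MHC II-high dura, libraries 1 and 4 were the highest for 11 and 13 mitotic genes, and libraries 2 and 3 the lowest for 13 and 11. Library 1 was also the highest for 14 of 16 S-phase genes. In MHC II-low dura, library 4 was the highest for 19 mitotic genes and library 1 for the other 5, and libraries 2 and 3 were the lowest for 18 and 6, while for S-phase genes library 1 was the highest for 8 and library 4 for 4. Choroid plexus library 4 was the highest for 12 of 16 S-phase and 12 of 24 mitotic genes, and libraries 1, 2 and 3 were the lowest for 8, 5 and 11 mitotic genes. In microglia no library was the highest or lowest for most of a class. Microglia library 5 was the highest for 7 S-phase and 9 mitotic genes, and library 1 the lowest for 6 and 8. Summed mitotic CPM was 398, 188, 219.7 and 437 in MHC II-low dura libraries 1 to 4, and 587, 313, 336 and 598 in MHC II-high dura libraries 1 to 4. Libraries 1 and 4 were thus the higher pair in both dura populations, and MHC II-low libraries 1 and 4 lay above MHC II-high libraries 2 and 3. Summed S-phase CPM was 563, 469.6, 518 and 551 in MHC II-low dura, and 848, 575, 661 and 692 in MHC II-high dura libraries, which do not overlap. The S-phase scores of these libraries did overlap, at -0.31 to 0.15 in MHC II-low and -0.10 to 0.81 in MHC II-high dura. No S-phase member was called between the dura populations.

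**Figure D5:**
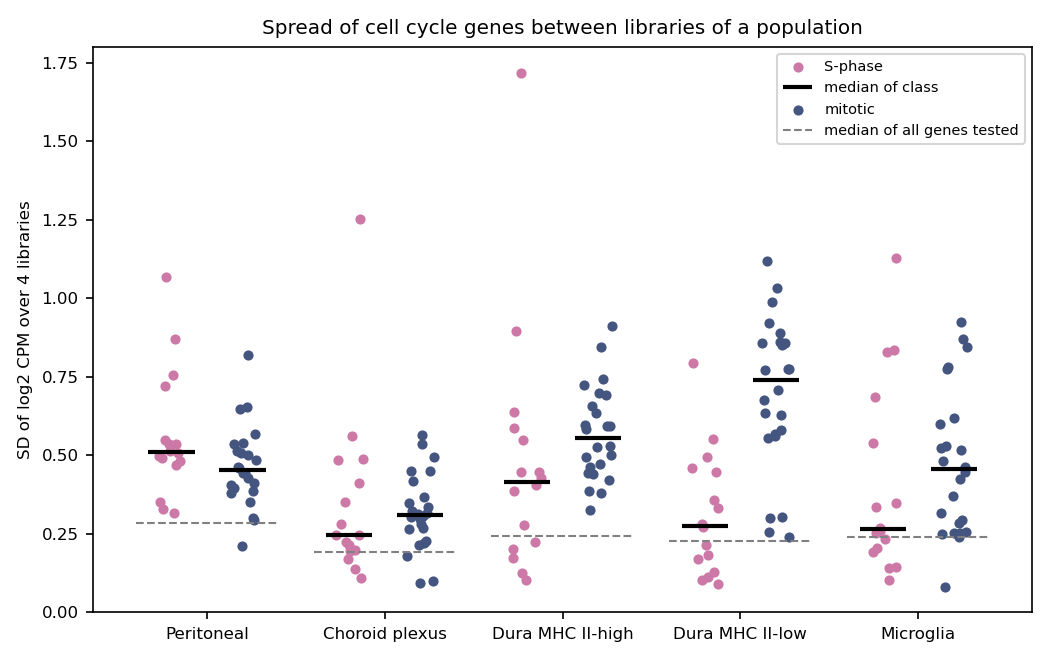
SD of log2 CPM over the 4 libraries of each population (vertical axis), for each S-phase gene (left) and mitotic gene (right), with the class median as a bar and the median of all genes tested as a dashed line. The highest class median is that of mitotic genes in MHC II-low dura, at 0.74.

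Cell cycle genes outside the 40 were read from lists chosen by function. Of 30 other replication genes, 25 were called higher in peritoneal, 16 in choroid plexus, 20 in MHC II-high dura and 16 in MHC II-low dura macrophages against microglia, and none lower. Over all genes tested 18.9, 12.1, 15.7 and 13.8% were called higher in these comparisons. Mcm10, which helps to start the helicase, averaged 30.3 ± 11.8 CPM in peritoneal, 3.37 ± 1.01 in choroid plexus, 9.61 ± 4.01 in MHC II-high dura, 6.22 ± 2.44 in MHC II-low dura and 0.367 ± 0.273 in microglia libraries (SD, n = 4). Uhrf1, which guides DNA methylation to new strands, averaged 62.3 ± 19.6, 14.3 ± 3.84, 28.1 ± 7.98, 16.4 ± 4.88 and 2.45 ± 0.584 CPM in the same order. Of 34 other mitotic genes, 31, 29, 30 and 30 were called higher against microglia, beside the same shares of all genes. In choroid plexus against MHC II-high dura 16 of them and 2 of the 30 other replication genes were lower, where 4% of all genes were. Anln, a scaffold of the cytokinetic ring, averaged 38 ± 12.3 CPM in peritoneal, 18.5 ± 2.33 in choroid plexus, 25.1 ± 6.72 in MHC II-high dura, 14.5 ± 5.04 in MHC II-low dura and 0.945 ± 0.611 in microglia libraries (SD, n = 4). Between the dura populations 2 of the 34 other mitotic genes were called higher in MHC II-high dura, where 2.39% of all genes were. These were Aspm (1.34 ± 0.42, adjusted p = 0.0429, edgeR) and Spc24 (1.18 ± 0.36, adjusted p = 0.0380, edgeR). None of the 30 other replication genes was called there. Calls of genes outside the 40 were not checked with libraries left out.

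Regulators upstream of the cycle were called higher more often than lower against microglia. Of 17 tested genes of G1 entry and E2F control, 8 were higher and 1 lower in peritoneal macrophages, 6 and 2 in choroid plexus, 7 and 2 in MHC II-high dura and 6 and 3 in MHC II-low dura, each against microglia. Of all genes tested 18.9% were called higher and 25.7% lower in peritoneal, 12.1 and 7.11% in choroid plexus, 15.7 and 12.2% in MHC II-high dura and 13.8 and 12.7% in MHC II-low dura macrophages. The lower counts lie near or under these shares, and the higher counts lie above them. E2f1, an activator of S-phase genes, averaged 34.6 ± 5.39 CPM in peritoneal, 23.2 ± 4.69 in choroid plexus, 33 ± 6.16 in MHC II-high dura, 31.9 ± 4.12 in MHC II-low dura and 2.38 ± 0.60 in microglia libraries (SD, n = 4). Cyclin D genes, which start the exit from quiescence, had distinct patterns. Ccnd2 averaged 14.3 ± 10.2 CPM in peritoneal, 182 ± 29 in choroid plexus, 71.1 ± 14.8 in MHC II-high dura, 44.8 ± 4.63 in MHC II-low dura and 10.2 ± 15.5 in microglia libraries (SD, n = 4), whereas Ccnd3 averaged 294 ± 53, 82.9 ± 13.3, 76.9 ± 16.4, 79.7 ± 8.57 and 47.3 ± 19.1 CPM in the same order. The Ccnd2 values of microglia ran between 1.25 and 33.4 CPM. Myc, a growth regulator, averaged 126 ± 25.6 CPM in peritoneal, 58 ± 12.2 in choroid plexus, 42 ± 6.67 in MHC II-high dura, 30.4 ± 4.49 in MHC II-low dura and 172 ± 17.4 in microglia libraries (SD, n = 4), and was called lower in MHC II-low dura than in microglia (-2.50 ± 0.17, adjusted p = 1.78e-10, edgeR).

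Of 17 CDK inhibitors, pocket proteins and antiproliferative genes, 6 were higher and 4 lower in peritoneal macrophages against microglia, 2 and 1 in choroid plexus, 5 and 3 in MHC II-high dura and 3 and 1 in MHC II-low dura. The shares of all genes called higher and lower were 18.9 and 25.7% in peritoneal and 12.1 and 7.11% in choroid plexus macrophages. They were 15.7 and 12.2% in MHC II-high and 13.8 and 12.7% in MHC II-low dura macrophages. Apart from the higher counts in peritoneal and MHC II-high dura macrophages, the counts lie near or under these shares. Btg2, an antiproliferative gene, averaged 185 ± 11.6 CPM in peritoneal, 2591 ± 921 in choroid plexus, 2583 ± 283 in MHC II-high dura, 2958 ± 379 in MHC II-low dura and 2315 ± 232 in microglia libraries (SD, n = 4). Its log2 difference between peritoneal macrophages and microglia was -3.65 ± 0.20 (adjusted p = 1.87e-12, edgeR). Cdkn2c, an inhibitor of Cdk4 and Cdk6, averaged 45.3 ± 7.08, 20.3 ± 4.46, 30.2 ± 5.65, 24.3 ± 7.17 and 5.46 ± 1.8 CPM in the same order of populations. Cdkn1a (p21) averaged 97.3 ± 19.6 CPM in peritoneal, 104 ± 40.1 in choroid plexus, 242 ± 52.3 in MHC II-high dura, 179 ± 30.2 in MHC II-low dura and 97.9 ± 27.5 in microglia libraries (SD, n = 4). Of 15 genes of the anaphase-promoting complex and its regulators, 4 were higher in peritoneal macrophages, 1 in choroid plexus and 2 in each dura population against microglia. Beside 18.9, 12.1, 15.7 and 13.8% of all genes, the choroid plexus and dura counts are near or under the share of all genes. Fbxo5, an inhibitor of the complex in S and G2, was among those higher in peritoneal macrophages (3.24 ± 0.35), against microglia.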

How the data were processed

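Total RNA of 20 macrophage samples was sequenced, and the authors deposited raw counts per gene symbol for each sample. Per the submitters' processing notes, the tools were TopHat2 2.1.0, Trimmomatic 0.38, SAMtools 0.1.18 and FastQC 0.11.4, with the mm10 genome. The sources used here do not name the counting tool, its annotation or its strand setting. Without strand, reads of overlapping genes cannot be told apart, and exon overlaps were taken from GENCODE M21, which held 23376 of the 24421 symbols.

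The 5 lines that name no gene were left out. No-feature reads were 5.67–13.1% and ambiguous reads 0.836–1.51% of the counts per library. Libraries held 13383300 to 32611900 gene counts, so that 3 counts correspond to 0.0964–0.222 CPM, a floor for counting error only. Counts per 1000000 (CPM) used TMM-adjusted library sizes (factors 0.923–1.05). Genes were filtered with filterByExpr, and edgeR 4.0.16 (R 4.3.3) quasi-likelihood F tests were fitted to all 20 libraries in one model with 15 residual degrees of freedom and a common biological coefficient of variation of 0.302. Adjusted p-values are Benjamini-Hochberg over 13960 genes, for each of 10 comparisons and one test over all populations. A call needs an adjusted p under 0.05 and a 2-fold change. SE is the size of the log2 fold change divided by the square root of F. Scores used log2 CPM with a prior count of 2. Promoters and motifs were read with Python 3.11.15 from a RefSeq table. The procedure was tested on simulated data.

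The 40 genes, their classes and all lists were chosen with earlier results of these data known. Values in every library are given for the 2 members with the highest mean CPM in each role (1 in roles of under 4 members), for 6 set genes (Mki67, Top2a, Cdk1, Ccnb1, Mcm2 and Pcna), and for the member with the largest called fold change in each comparison and direction. Of the other lists, up to 3 genes with the largest called fold change at 5 CPM or more are named. Alternatives were DESeq2 1.42.0, its size factors, no filter and a stricter filter, no fold minimum, the compared libraries alone, thinning to equal depth, a replicate block, other scores and each library left out in turn. The numbers of the samples were not taken as pairs, since same-numbered libraries of no 2 populations all correlated above 0.1. This limit does not exclude pairing of the dura libraries, as given below.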

Additional observations from a re-analysis of the deposited data

Results flagged for a closer look

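Within each population, each member's CPM and the scores were checked for a library separated from the other 3 by more than Dixon's 95% limit for 4 values. This marked 10 of 215 groups of 4, and chance alone marks about 1 in 20. Of the 10, 5 were peritoneal library 1 in mitotic genes. Peritoneal library 1 had 54.0 CPM of Ccnb2 (nearest library 30.1 CPM), 46.5 CPM of Bub1b (nearest 28.0 CPM) and 37.3 CPM of Kif23 (nearest 25.8 CPM). It also had 45.1 CPM of Tpx2 (nearest 25.0 CPM) and 31.1 CPM of Cdc20 (nearest 18.3 CPM). Choroid plexus library 4 had 13.8 CPM of Rrm2 (nearest 8.28 CPM) and an S-phase score of 0.18 (nearest -0.31). Choroid plexus library 3 had 12.5 CPM of Kif23, where the nearest had 11.0 CPM. Microglia library 3, the one with choroid plexus markers, had 1.36 CPM of Gmnn (nearest 2.18 CPM). Microglia library 5 had a mitotic minus S-phase score of -1.28 (nearest -1.14).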

How the results depend on the processing

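No called difference changed direction under any alternative run. Of 253 called pairs of member and comparison, 2 lost the call with DESeq2 (Rrm2 and Aurkb between choroid plexus and MHC II-high dura), 2 with its size factors, 2 with no filter on low counts, 3 of 252 with only the compared libraries, 1 after thinning each library to 13383300 counts and none of 241 with the stricter filter. Leaving out each library in turn ended the call of 37 pairs at least once. Fitting the sample number as a replicate block ended 7 calls. The labels do not say that a number marks shared animals or days. Between the dura populations all 4 same-number correlations were above 0 (0.0239 to 0.120) but not all above 0.1. MHC II-high libraries 2, 3 and 4 each correlated best with the same-numbered MHC II-low library (0.0862, 0.0539 and 0.120). MHC II-high library 1 correlated best with MHC II-low library 3 (0.0795). Correlations of different numbers ran from -0.0821 to 0.0795. Pairing is thus neither established nor excluded. Between MHC II-high and MHC II-low dura, where 1 member was called, the replicate block called 3, thinning 2 and no fold minimum 3. With each library left out, members called ranged from 0 to 3 between the dura populations, from 38 to 39 for peritoneal, 32 to 34 for choroid plexus, 35 to 36 for MHC II-high and 33 to 34 for MHC II-low dura against microglia. They ranged from 34 to 37, 11 to 25 and 25 to 33 for peritoneal against choroid plexus, MHC II-high and MHC II-low dura, from 11 to 24 and 0 to 7 for choroid plexus against MHC II-high and MHC II-low dura, and from 39 to 40 in the test over all populations. The mitotic minus S-phase score then ran from 0.01 to 0.26 in peritoneal, -0.09 to 0.01 in choroid plexus, 0.56 to 0.74 in MHC II-high dura, 0.26 to 0.56 in MHC II-low dura and -1.21 to -1.13 in microglia libraries. Built from summed CPM, the score was 0.48 in peritoneal, -0.05 in choroid plexus, 0.73 in MHC II-high dura, 0.53 in MHC II-low dura and -1.70 in microglia libraries, against 0.11, -0.03, 0.66, 0.43 and -1.17 as reported, and the cause was not tested. With Mki67, Top2a, Ccna2 and Gmnn in neither class it was -1.14. Microglia and choroid plexus libraries are the shallowest, and microglia values of Kif23, Ccne2 and Cdc6 rest on few counts.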
